A study of Mus musculus with 3 samples.

Results

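Serine proteases named Prss, Tmprss, Klk or Pcsk, with acrosin (Acr) and the acrosin-binding protein gene Acrbp, were described on arrays of mouse testicular germ cells. The genes were chosen by symbol alone: a probe set had to name 1 gene in the platform annotation, and that symbol had to be Acr or Acrbp or begin with Tmprss, with Klk1b, or with Prss, Klk or Pcsk and a number. This gave 85 of 19938 named genes, each measured by 1 probe set. The samples were 3 numbered replicates of 1 group, labelled as spermatids from testes of 30-day-old wild-type male BALB/c mice, with no agent, allele or control group. The protocol describes a strained single-cell suspension of whole tubules and no step that selects spermatids, and the labels do not tie the replicates to different animals, so errors may measure technical spread only.

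Trypsin-like proteases cut after lysine or arginine and are usually made as inactive precursors. In the male germ line the best known is acrosin, stored as proacrosin in the acrosome, the secretory cap of the sperm head, where ACRBP binds it and governs its activation. Many mouse relatives are made in testis as acrosomal, membrane-bound or glycolipid-anchored proteins, some of them needed for sperm to mature the surface protein ADAM3 and to enter the oviduct. The name rule reaches beyond this fold. Pcsk genes encode convertases of the subtilisin family, Pcsk1n encodes an inhibitor of one of them, Acrbp encodes no protease, Prss16 encodes a peptidase of another family, and Klk1b7-ps is annotated as a pseudogene.

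Values are log2 levels from RMA (Robust Multichip Average) with SDs over n = 3 arrays. With 1 group, each gene was set against a background level of 7.98, the 95th percentile of 211 vomeronasal receptor and hair keratin associated protein genes, with a one-sided limma test of the mean, adjusted by Benjamini-Hochberg over all named genes and called at 0.05. The level of a probe set also depends on how well its probes bind, so the order of genes below is not an order of RNA amounts. Pearson's r between arrays, over all probe sets, was 0.992 to 0.995. Of the markers of the labelled cell type, 14 of 14 spermatid genes were above background. So were 10 of 10 spermatocyte, 9 of 12 Sertoli cell, 7 of 8 Leydig cell, 5 of 10 peritubular, endothelial and stromal, 4 of 8 blood and immune, 3 of 12 spermatogonial, 0 of 7 mast cell and 0 of 10 epididymal genes, where 36.6% of all named genes were called. Markers of several cell types were therefore above background, and the part of each type in a level given here was not tested; fewer cells of a type and less RNA per cell cannot be told apart.

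Most of the named proteases were not above background, and those that were came mainly from the sperm and acrosome group, a list of 20 members known from testis or sperm. In that group 18 of 20 were above background, with a median level of 10.18, whereas 6 of the remaining 65 members were. Over all members the count was 24 of 85 (28.2%), below the 36.6% of all named genes called by the same test, and the members' median of 7.03 lay below the 7.45 of all named genes. The count fell to 17 at a stricter level of 9.16, the 99th percentile, where 19.3% of all genes were called, and rose to 33 at the olfactory receptor level of 7.18, where 55% were. The 99th percentile of 211 genes rests on the few highest of them. The test takes each level as fixed, so small differences from a level carry an error that was not measured. In the sperm and acrosome group the count was 14 at the stricter level and 18 at the olfactory receptor level. The list was drawn up with earlier results of these arrays known.

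**Figure D1:**
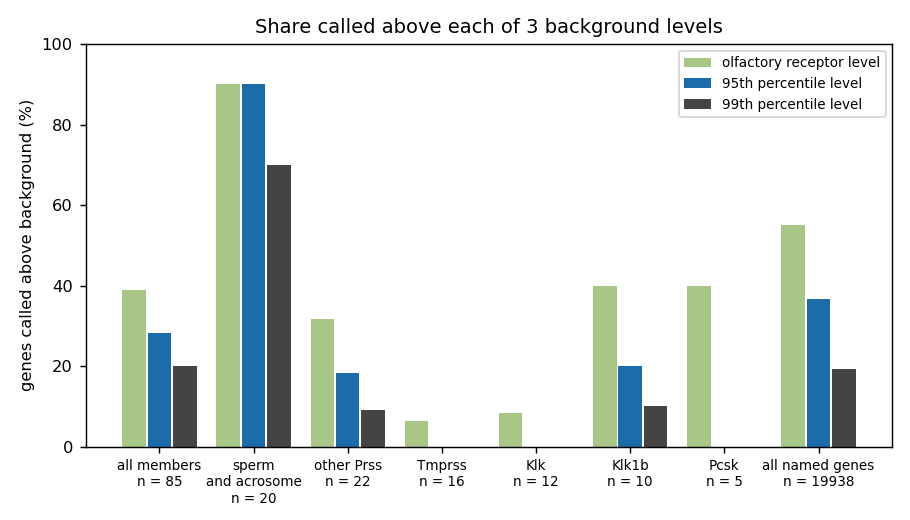
Share of genes (%, vertical axis) that the adjusted limma test called at each of 3 background levels, for all 85 members, the 6 groups of members and all 19938 named genes. The sperm and acrosome group stands at 90% at the 95th percentile level against 36.6% of all named genes, and the Tmprss, Klk and Pcsk groups stand at 0 there.

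Acrosin itself and its partner were both well above background. Acr read 11.22 on all 3 arrays, 3.24 above the level (adjusted p = 8.79e-11, limma). Acrbp read 10.60 on all 3 arrays, 2.61 above the level (adjusted p = 8.79e-11, limma). Tied values of this kind were common: 44 of the 85 members (51.8%) and 46% of all named genes had exactly the same value on every array. The reason for the ties is not known, and such ties are unusual for RMA values. For a tied gene an SD of 0 is not an absence of error, and its test only asks whether the value lies above the level, so the very small adjusted p-values of tied genes are no measure of replicate precision.

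A stretch of the Acrbp promoter is given because it holds the only match, among the 13 sperm and acrosome members with a RefSeq promoter, to TGACGT, the short form of the element bound by CREM and related factors. The match lies on the gene's strand, begins 18 bases before the annotated start and is in capitals (RefSeq, GRCm38.p6, chr6:125049879-125049926, plus strand).
Acrbp: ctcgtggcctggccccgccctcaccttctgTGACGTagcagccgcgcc
The windows searched, on both strands, ran from 250 bases before to 50 after each start and existed for 67 of the 85 members, Acr not among them. The short form was in 1 of 13 sperm and acrosome promoters (7.69%) and in 8.37% of all 27025 genes with a window, and the full element TGACGTCA, which contains it, in 0 of 13 against 2.03%. TATAAA was in 0 of 13 against 15.7%. The X-box core GTTGCC was in 3 of 13 (23.1%), those of Acrbp, Prss21 and Prss46, against 14.1% of all genes. The MYB motif TAACNG was in 3 of 13 (23.1%), those of Prss37, Prss45 and Prss54, against 25.9%. These matches describe the letters in these windows and are not binding sites.

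Among other proteases of the acrosome, Prss39 and Prss40 (TESP1 and TESP2) lie near each other on chromosome 1 with 1 coding gene between them. Prss39 read 12.47, 12.47 and 12.44 on replicates 1, 2 and 3 (mean 12.46 ± 0.01, adjusted p = 1.83e-06, limma), the highest level among the members. Prss40 read 10.17, 10.12 and 10.17 (10.15 ± 0.03, adjusted p = 3.31e-05, limma). Both lay above the stricter level on every array, with ranges over the arrays of 0.02 and 0.04. Prss21 encodes testisin, a glycolipid-anchored protease of the sperm surface. It read 9.80, 9.80 and 9.82 (9.81 ± 0.01, adjusted p = 1.26e-05, limma).

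Some members have known parts in ADAM3 maturation or in sperm passage into the oviduct. Prss37, which encodes a protease-like protein held to be inactive and needed for ADAM3 maturation, read 10.57, 10.57 and 10.71 (10.62 ± 0.08, adjusted p = 0.000205, limma). Prss55, a glycolipid-anchored member with a similar loss-of-function effect, read 10.58, 10.61 and 10.51 (10.57 ± 0.05, adjusted p = 9.35e-05, limma). Tmprss12, the one transmembrane member of the group, was closer to the level at 8.50, 8.50 and 8.61 (8.54 ± 0.06, adjusted p = 0.00322, limma). Its call was lost without replicate 2 (adjusted p = 0.0657, limma), and its mean differed from the stricter level by -0.62. Pcsk4, the proprotein convertase of germ cells, read 9.13 on all 3 arrays (adjusted p = 1.54e-10, limma), above the level and at -0.03 from the stricter one.

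Another 6 testis members lie side by side on chromosome 9 with no coding gene between them, and 5 of these 6 were above background. Prss42, Prss43 and Prss44 (TESSP2, TESSP3 and TESSP4) are proteases described in germ cells of the testis. Prss42 read 10.61, 10.39 and 10.73 (10.58 ± 0.18, adjusted p = 0.00108, limma), the widest spread in the sperm and acrosome group, with replicate 2 lowest. Prss44 read 8.42, 8.42 and 8.39 (8.41 ± 0.02, adjusted p = 0.000345, limma). Prss43 read 8.32 on all 3 arrays (adjusted p = 1.30e-09, limma). Both lay below the stricter level, and Prss43 was at -0.002 from the background level when probe sets of several genes were added, which raised that level to 8.33. Prss45 read 9.23 and Prss46 read 10.21, each tied on all 3 arrays (adjusted p = 1.36e-10 and 8.79e-11, limma). Prss50, also called TSP50, encodes a testis protein with threonine in place of the catalytic serine, and it was the exception at 6.96 on all 3 arrays, a difference of -1.02 from the level.

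The other members of the list were Prss51, Prss52, Prss54, Prss58 and Prss41. Prss51 and Prss52 are neighbours of Prss55 on chromosome 14 with no coding gene between them, and all 3 were above background. Prss52 read 11.61 and Prss51 read 9.20, each tied on all 3 arrays (adjusted p = 8.79e-11 and 1.42e-10, limma). Prss54 read 10.41 on all 3 arrays (adjusted p = 8.79e-11, limma). Prss58 read 10.65, 10.60 and 10.73 (10.66 ± 0.06, adjusted p = 0.000126, limma). Prss41 (TESSP1) read 7.14 on all 3 arrays, a difference of -0.84 from the level, and was the other member of the group that was not called. A value under the level does not show that a gene was silent, because the median of the background genes was far lower, at 4.77.

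**Figure D2:**
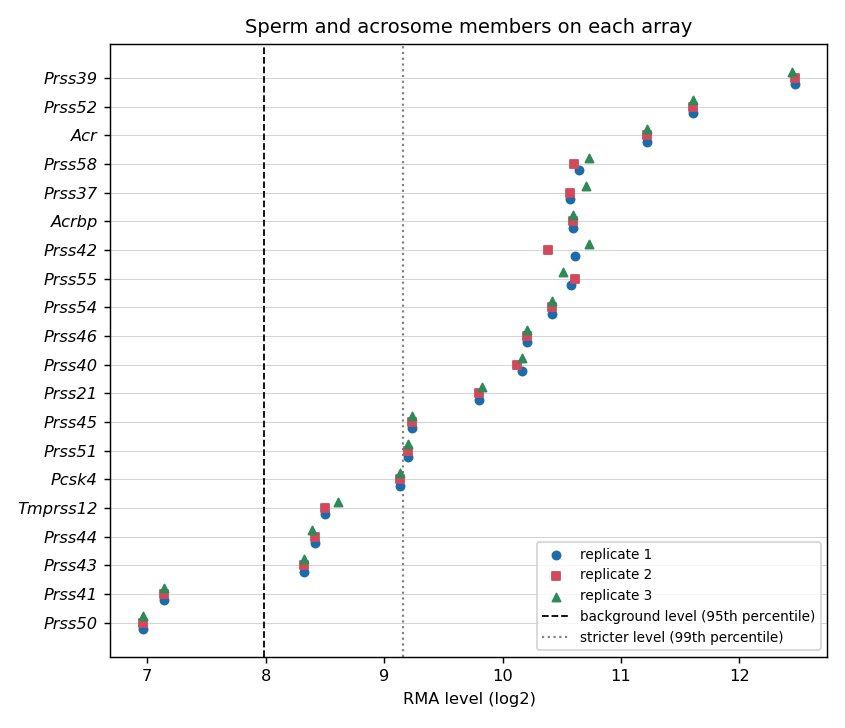
RMA level (log2, horizontal axis) of the 20 sperm and acrosome members on replicates 1, 2 and 3, with the background level of 7.98 dashed and the stricter level of 9.16 dotted. The arrays lie close together for each gene, Prss42 shows the widest spread, and Prss41 and Prss50 are the members left of the dashed line.

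The spread between arrays was small for most members, as it was for most named genes. Of the 85 members 41 were not tied. An SD above 0.1 was found in 12 of the 85, against 2733 of all 19938 named genes. Equal values on 2 arrays were also found among the 41: replicates 1 and 3 in 12 members, replicates 1 and 2 in 11, replicates 2 and 3 in 4. Among the 41, replicate 2 held the single highest value in 20 members and replicate 3 the single lowest in 16. The same counts over all named genes were not made. The median of all named genes was also highest on replicate 2, at 7.461 against 7.436 on replicates 1 and 3. In the sperm and acrosome group replicate 2 had the lowest median, at 10.165 against 10.187 on replicates 1 and 3. The widest range among the 85 members was 0.40, in Klk13, which was below the level on every array. Of the 10 measured epididymal genes, Cuzd1 at 7.64, 8.30 and 9.45 and Adam7 at 5.28, 6.61 and 8.26, singled out after their values were seen, differed more between the arrays than any member did. The other 8 epididymal genes had SDs of 0 to 0.16.

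Among the other Prss members 4 of 22 (18.2%) were above background, against 36.6% of all named genes, with a median of 6.51. Prss35, which encodes a protease-like protein first described in ovary, read 9.94, 9.94 and 10.11 (SD 0.10, adjusted p = 0.000595, limma). Prss47 read 9.85, 9.84 and 9.84 (9.84 ± 0.0041, adjusted p = 9.54e-07, limma). Both also passed the stricter level, whereas Prss48, at 8.79 on all 3 arrays (adjusted p = 2.60e-10, limma), did not. Prss23, which encodes a secreted protease, read 8.04 on all 3 arrays. It lay only 0.06 above the level, and it was at -0.28 from the level of 8.33 that resulted when probe sets of several genes were added. The 18 members that were not called ranged from the digestive trypsin gene Prss3 at 4.69 ± 0.11 to Prss56 at 7.70, tied on all 3 arrays. Prss2, another digestive trypsin gene, was at 5.93 ± 0.05.

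Type II transmembrane serine proteases sit in the plasma membrane of many epithelia, and apart from Tmprss12 none of them was above background. The count was 0 of 16 by the adjusted limma test (36.6% of all named genes) and 0 at an unadjusted p of 0.05 (7417 of 19938). It was 0 by asking for every array above the level (37.6%), and 1 at the olfactory receptor level (55%). Levels ran from Tmprss11c at 5.04, tied, to Tmprss11b at 7.36 ± 0.03. The 7 Tmprss11 genes form a run on chromosome 5, and Tmprss11b was the highest of them. Tmprss2, a protease gene of prostate and airway epithelium, read 7.03 on all 3 arrays. Tmprss15, the enteropeptidase gene that activates trypsinogen in the gut, read 5.43 on all 3 arrays.

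**Figure D3:**
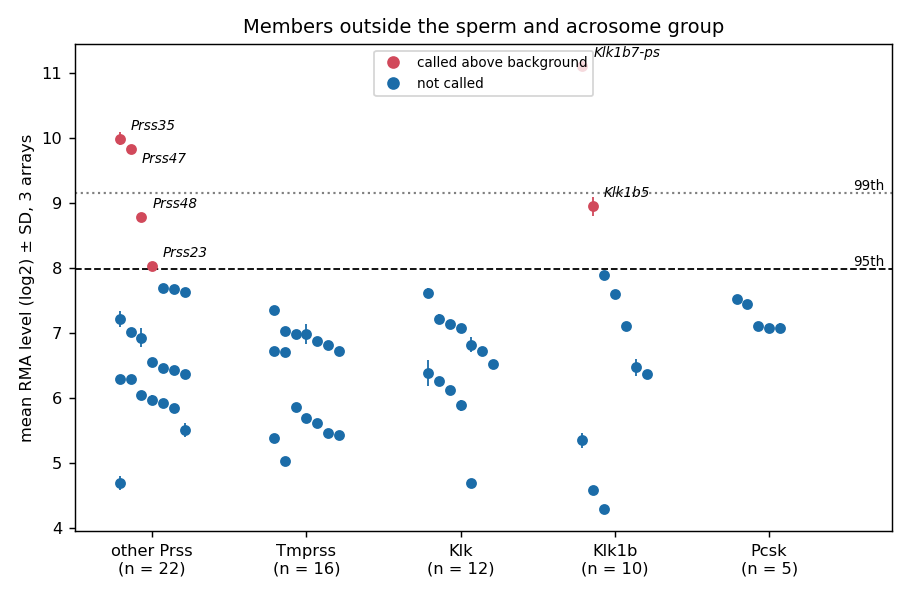
Mean RMA level (log2, vertical axis) with the SD over 3 arrays for the 65 members outside the sperm and acrosome group, split by symbol and spread sideways only for legibility. Red points are the 6 genes called above the background level of 7.98 (dashed), and the dotted line is the stricter level of 9.16; no Tmprss, Klk or Pcsk gene of these groups is above the dashed line.

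The tissue kallikreins among the members, Klk4 to Klk15, secreted proteases of skin, brain and glands, were likewise not called. Klk1 was not among the members. The count was 0 of 12 by the adjusted limma test (36.6% of all named genes) and 0 at an unadjusted p of 0.05 (7417 of 19938). It was 0 with every array above the level (37.6%), and 1 at the olfactory receptor level (55%). They ranged from Klk11 at 4.70, tied, to Klk10, which read 7.59, 7.71 and 7.59 (7.63 ± 0.07). The remaining Pcsk members were not called either, with 0 of 5 by each of the first 3 rules and 2 at the olfactory receptor level, where 55% of all named genes were called. Pcsk7, a convertase of many tissues, was highest of them at 7.53 on all 3 arrays, and Pcsk1n was lowest at 7.05, 7.17 and 7.05 (7.09 ± 0.07). Pcsk1, the convertase of endocrine cells, read 7.09 on all 3 arrays.

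The Klk1b genes are the expanded kallikrein family of rodents, with many near-identical copies, and 2 of 10 (20%) were above background, against 36.6% of all named genes. The probe set of the pseudogene Klk1b7-ps read 11.11, 11.11 and 11.10 (11.11 ± 0.0044, adjusted p = 3.51e-07, limma). Klk1b5 read 8.91, 9.12 and 8.84 (8.96 ± 0.15, adjusted p = 0.00591, limma). The Klk1b5 call was lost without replicate 1 (adjusted p = 0.0735, limma) and without replicate 3 (adjusted p = 0.0788, limma), which left 1 Klk1b gene called each time, and its mean differed from the stricter level by -0.21. Klk1b8 read 7.90 on all 3 arrays, a difference of -0.08 from the level. Klk1b24 and Klk1b27, described in Leydig cells, were not called. Klk1b24 read 7.57, 7.63 and 7.63 (7.61 ± 0.04), and Klk1b27 read 7.12, 7.11 and 7.12 (7.12 ± 0.0047). The related Klk1b21 was not analysed here. The lowest member was Klk1b16 at 4.29 on all 3 arrays. Copies of this family can share probe sequence, so the level of each single Klk1b gene, the pseudogene included, is uncertain.

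Some of the copies, not all, were also alike in a part of their promoters, shown here for Klk1b5, which was called. The others shown are the copies that matched it best, Klk1b22 (6.37 on all 3 arrays) and Klk1b9 (6.48 ± 0.13), which were not called. Each window of 60 bases lies before the annotated start and is the one that matches the Klk1b5 window best without gaps. Capitals mark bases that differ from Klk1b5 (RefSeq, GRCm38.p6, plus strand: Klk1b5 chr7:44216402-44216461, Klk1b22 chr7:44112603-44112662, Klk1b9 chr7:43975998-43976057).
Klk1b5: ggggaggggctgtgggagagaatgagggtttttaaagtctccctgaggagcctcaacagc
Klk1b22: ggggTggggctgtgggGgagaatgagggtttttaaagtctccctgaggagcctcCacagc
Klk1b9: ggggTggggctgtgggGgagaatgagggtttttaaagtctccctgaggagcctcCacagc
Klk1b22 and Klk1b9 each matched Klk1b5 at 57 of 60 bases (95%), and across the other 6 Klk1b promoters the best match ran from 41.7% for Klk1b27 to 76.7% for Klk1b8. Klk1b5 was above the background level on every array, whereas Klk1b22 and Klk1b9 were below it on every array. These levels carry the limits given above for single copies and for the Klk1b5 call. No promoter window existed for Klk1b7-ps, the copy with the highest level, so it was not compared.

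Members that neighbour each other in the genome did not all lie on the same side of the level. The run on chromosome 6 held Prss37 and Prss58 at 10.62 and 10.66 and, with 7 coding genes between, the trypsin genes Prss3 and Prss2 at 4.69 and 5.93. In the run of 7 members on chromosome 17 only Prss21 was above background, and the rest lay between 6.05 for Prss30 and 7.68 for Prss27. In the kallikrein run on chromosome 7 the 2 called genes, Klk1b7-ps and Klk1b5, stood among 22 members, and the lowest of that run was Klk1b16. Gene order was taken from GRCm38.p6, and a run joins members with at most 10 coding genes between neighbours.

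**Figure D4:**
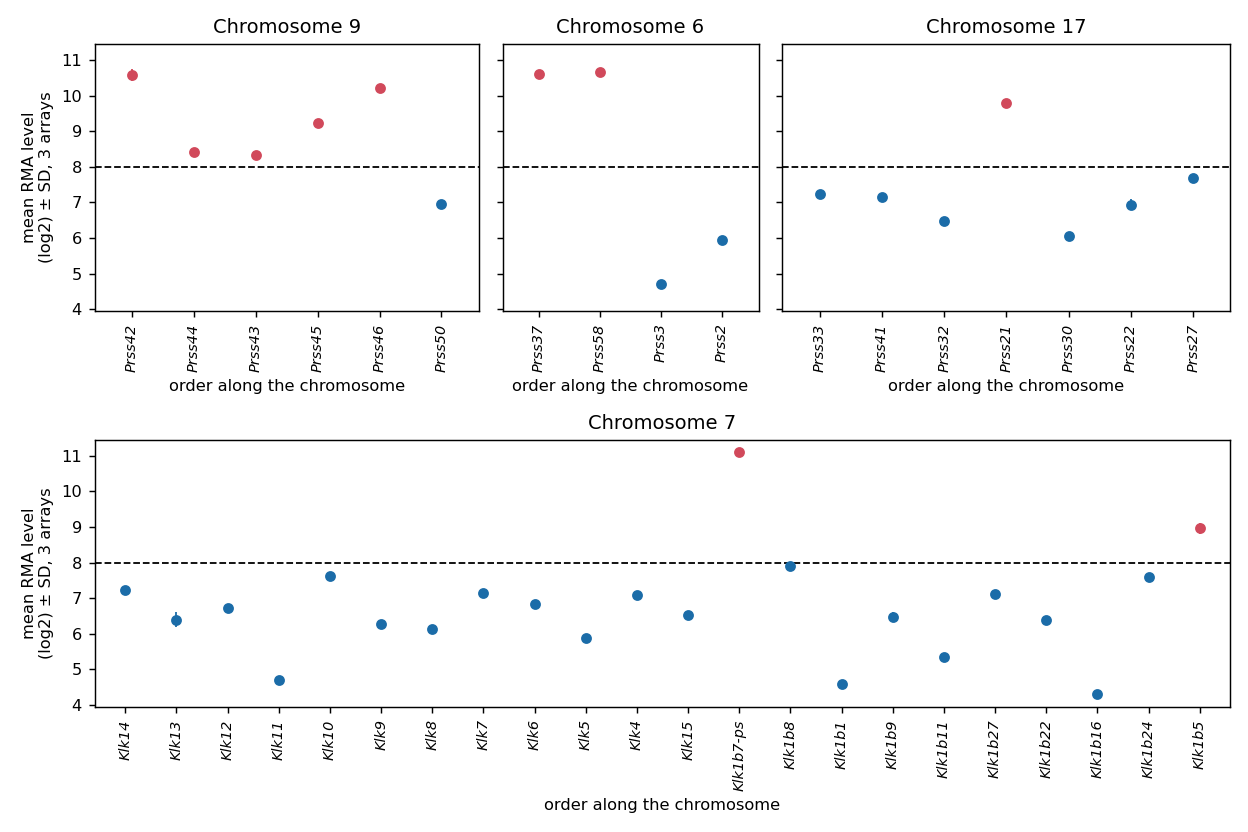
Mean RMA level (log2, vertical axis) with the SD over 3 arrays for members in their order along chromosomes 9, 6, 17 and 7; the horizontal axis gives order only, not distance. Red points were called above the dashed background level of 7.98: 5 of 6 on chromosome 9, 2 of 4 on chromosome 6, 1 of 7 on chromosome 17 and 2 of 22 on chromosome 7.

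Genes that work with these proteases were also measured, and their counts are to be read against the 36.6% of all named genes called and the median of 7.45. All 19 genes of a list of acrosome formation and acrosomal proteins were above background, with a median of 10.54. They ran from Spaca3 at 8.83, tied, to Crisp2 at 12.51 ± 0.15 and included Zpbp at 10.54 on all 3 arrays. On a list of ADAM3 maturation and oviduct passage, 16 of 18 measured genes were above background, with a median of 10.56. Adam3 itself read 12.49, 12.36 and 12.62 (12.49 ± 0.13), while Rnase10, a gene of the epididymis, at 4.90, tied, and Tpst2 at 7.20 ± 0.01 were not called. Of protease inhibitors 6 of 20 were above background, with a median of 7.18, near the share and the median of all named genes. Spink2, the germ cell inhibitor that restrains acrosin, read 12.22, 12.17 and 12.27 (12.22 ± 0.05, adjusted p = 3.64e-05, limma). Serpina5, an inhibitor of acrosin in the male tract, read 10.64, 10.57 and 10.64 (10.61 ± 0.04, adjusted p = 4.62e-05, limma), and Spint4 was at 4.61 ± 0.12 and not called.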

How the data were processed

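The deposited values are log2 probe set levels; the authors made them with Robust Multichip Average and Affymetrix Power Tools on annotation based on mm9, per the series' design text, from Affymetrix Mouse Gene 1.0 ST arrays and 200 ng of total RNA. The software version was not given in the sources used here. Scanner files were not used here. The column medians were 7.17, 7.20 and 7.17, so values were not centred. All 3 columns, of 1 group, were used.

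Of 35556 probe sets the platform annotation named 1 gene for 21789, several for 1621 and none for 12146. Symbols were updated by Entrez identifier to GRCm38.p6 for 21698 of the 21789, which changed no member. Probe sets of the same gene were summarised by their median. limma 3.58.1 in R 4.3.3 fitted an intercept with empirical Bayes variances (prior degrees of freedom 0.267) to all 19938 genes, and the mean was tested one-sided against the background level with Benjamini-Hochberg adjustment. The test was checked on simulated data. Genes tied on the arrays were kept without noise there unless a raised level was planted in them. The check therefore says little about tied genes. The background genes were 167 vomeronasal receptor (Vmn1r, Vmn2r) and 44 Krtap genes. Alternatives changed the level, the summary of probe sets, the variance model, a filter on low values and the arrays used.

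The members and lists were chosen with earlier results of these data known. Named were every member called above background, the sperm and acrosome list, Klk1b21, Klk1b24 and Klk1b27, the highest and lowest of each other group, and the ends of the other lists. Prss2, Prss27, Prss30, Tmprss2, Tmprss15, Pcsk1, Klk1b8, Klk1b9, Klk1b22 and Klk13 were added after their values were seen. So were Zpbp, Serpina5, Spink5, Spink8, Spink10, Spinkl, Adam7, Cuzd1, Gzma, Gzmb, Tysnd1 and Plat. Protein features of the members, planned at the start, were not analysed here. Promoter windows came from RefSeq.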

Additional observations from a re-analysis of the deposited data

How the results depend on the processing

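No paired analysis was possible because the samples form 1 group. The choice of background level moved most. At the 99th percentile, the other Prss count of 4 became 2 and the Klk1b count of 2 became 1, and the means of called genes fell below it: Pcsk4 by -0.032, Klk1b5 by -0.205, Prss48 by -0.376, Tmprss12 by -0.624, Prss44 by -0.756, Prss43 by -0.838 and Prss23 by -1.12. At the olfactory receptor level the counts were 7 for other Prss, 4 for Klk1b, 2 for Pcsk and 1 each for Tmprss and Klk, and Klk1b24 was 0.425 above it (adjusted p = 0.00118, limma). With probe sets of several genes added, the level rose to 8.326, Prss23 was at -0.283 and Prss43 at -0.002 from it, and 22 members were called. Leaving out 1 array gave 23 members each time, and a Klk1b count of 1 to 2, where Klk1b5 lost its call without replicate 1 or 3. The sperm and acrosome count of 18 ran from 14 to 18 over all alternatives. Of the 28 named genes, 24 stayed on their side of the level and the threshold under all 9 alternatives that kept the 95th percentile as the level. The exceptions were Klk1b5, Tmprss12, Prss23 and Prss43. Part of this outcome was fixed beforehand, so the count is no strong measure of stability. Each member has 1 probe set, so taking the highest probe set changed no member value. Leaving out an array could not change the value of a tied gene. With 3 arrays and tied values in 51.8% of members, array number limits the precision, and signal over background could not be judged by detection calls.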

Other observations

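Proteases of the trypsin fold that carry other names were mostly below the level. Of 57 measured genes on such a list 4 were above background, where 36.6% of all named genes were called. The median of the 57 was 6.44 against 7.45 for all named genes. The list holds granzymes, coagulation factors, complement proteases, mast cell proteases and digestive enzymes. Gzmn, a granzyme gene, read 8.92, 8.81 and 8.91 (8.88 ± 0.06, adjusted p = 0.00106, limma), while the granzyme genes Gzma and Gzmb were at 5.73 ± 0.02 and 5.59 ± 0.0013 and not called. The mitochondrial protease gene Htra2 read 8.64 and the peroxisomal protease gene Tysnd1 read 8.16, each tied on all 3 arrays. Plat, the tissue plasminogen activator gene, read 8.03 on all 3 arrays, close to the level of 7.98. The lowest genes were Mcpt1, a mast cell protease gene, at 4.08 ± 0.05 and the coagulation factor gene F9 at 3.97, tied.

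The inhibitor gene Spink8 differed strongly between the arrays, at 7.37, 8.68 and 10.23 on replicates 1, 2 and 3 (SD 1.43, n = 3). It was not called (adjusted p = 0.546, limma). Cuzd1 and Adam7 of the epididymal list also rose from replicate 1 to replicate 3, while the other epididymal genes measured varied far less. On the inhibitor list Spink5, Spink10 and Spinkl showed smaller rises in the same order, at levels well below background. The remaining genes of that list did not rise in this order. These genes were picked after their values were seen, and a shared source of the order was not tested.

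Of the probe sets that name several genes, 3 include a gene matching the name rule, 2 of trypsin genes with Prss1 and Prss3 and 1 of Klk1b26. Their means were 6.60, 6.57 and 6.76, all below the background level.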
